A study of Mus musculus with 8 samples.

Results

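Interferon-stimulated genes are the genes that cells switch on when interferon reaches them, and 39 of them were followed here in peritoneal macrophages with and without the mineralocorticoid receptor. The list names genes by symbol, and where a gene had several probe sets, the one brightest on average across the 8 arrays stood for it. Of the 39, 37 were measured, out of 18193 genes in all. Isg15 was not used because its probe set is annotated to a second gene as well, and Ifi44 was not analysed here. Of the 37, 17 had more than 1 probe set.

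Interferons bind receptors at the cell surface, whose kinases activate STAT proteins. STAT2 and IRF9 are parts of a complex that enters the nucleus and binds the interferon-stimulated response element. Macrophages keep many of these genes on at a low level without infection, and glucocorticoids, acting through the glucocorticoid receptor, are known to restrain parts of the programme.

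Affymetrix arrays were hybridised with RNA of macrophages that had been drawn into the peritoneal cavity of male C57BL6/J mice by aged Brewer's thioglycolate (3%), collected at 4 days and kept by adherence. The MRKO groups carried MR fl / fl with LysM cre, and the floxed control (FC) groups carried MR fl / fl alone, so that deletion of the receptor and presence of the Cre cannot be told apart. LysM cre is expressed from the lysozyme 2 locus, in macrophages and other myeloid cells such as neutrophils. The 4 groups were MRKO with 1 µM corticosterone for 24 h, untreated MRKO, FC with the same corticosterone and untreated FC, with 2 arrays each. The sample titles call the arrays of a group biological replicates. Every sample was also described as a pool of experiments done in triplicate. The p-values therefore reflect only how far such pools differ, which may be technical. With so few arrays the precision is limited. Values are log2 levels from RMA, a method that corrects the background, gives all arrays one distribution and combines each set's probes into a value. They have no zero and no detection call.

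The deleted gene, Nr3c2, read 5.11 and 5.47 in MRKO cells with corticosterone, 5.54 and 5.82 in untreated MRKO cells, 6.39 and 6.13 in FC cells with corticosterone and 6.39 and 8.46 in untreated FC cells. Each MRKO array lay below each FC array. Whether its probes fall inside the deleted exons was not checked here. Fkbp5, a classical glucocorticoid target, read 12.07 on both MRKO arrays with corticosterone, 8.45 on both untreated MRKO arrays, 11.93 and 11.97 in FC cells with corticosterone and 8.08 and 8.72 in untreated FC cells, so the hormone label held on every array. The macrophage markers averaged between 12.33 and 12.54 on 7 arrays and 11.59 on FC untreated replicate 2.

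FC untreated replicate 2 stood apart. It correlated with the rest at a median of 0.916, against 0.995 for every other array, and the gap between its 3′ and 5′ control probe sets for Actb, which widens as RNA breaks, was 2.18 log2 units against 0.41 to 0.62 elsewhere. Fibroblast and mesothelial markers averaged 8.44 on it and between 6.76 and 7.16 elsewhere. The interferon-stimulated genes were much lower on this array. They averaged 8.40 there and between 9.18 and 9.27 on the other 7. Of the 37, 31 (83.8%) had their lowest value on it, against 41.1% of all genes. The 2 untreated FC arrays differed by a median of 0.948 in absolute value over the members, and 16 members lay over 1 log2 unit apart. In the other groups no member lay over 1 unit apart, and the median absolute difference between replicates was between 0.052 and 0.075. Because the outlying array sets every value of the untreated FC group, comparisons were fitted with all 8 arrays and again with 7, leaving it out. With 7 arrays the untreated FC group is 1 array, assumed to vary like the other groups. How far broken RNA or other cells lowered the members on that array was not tested.

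**Figure D1:**
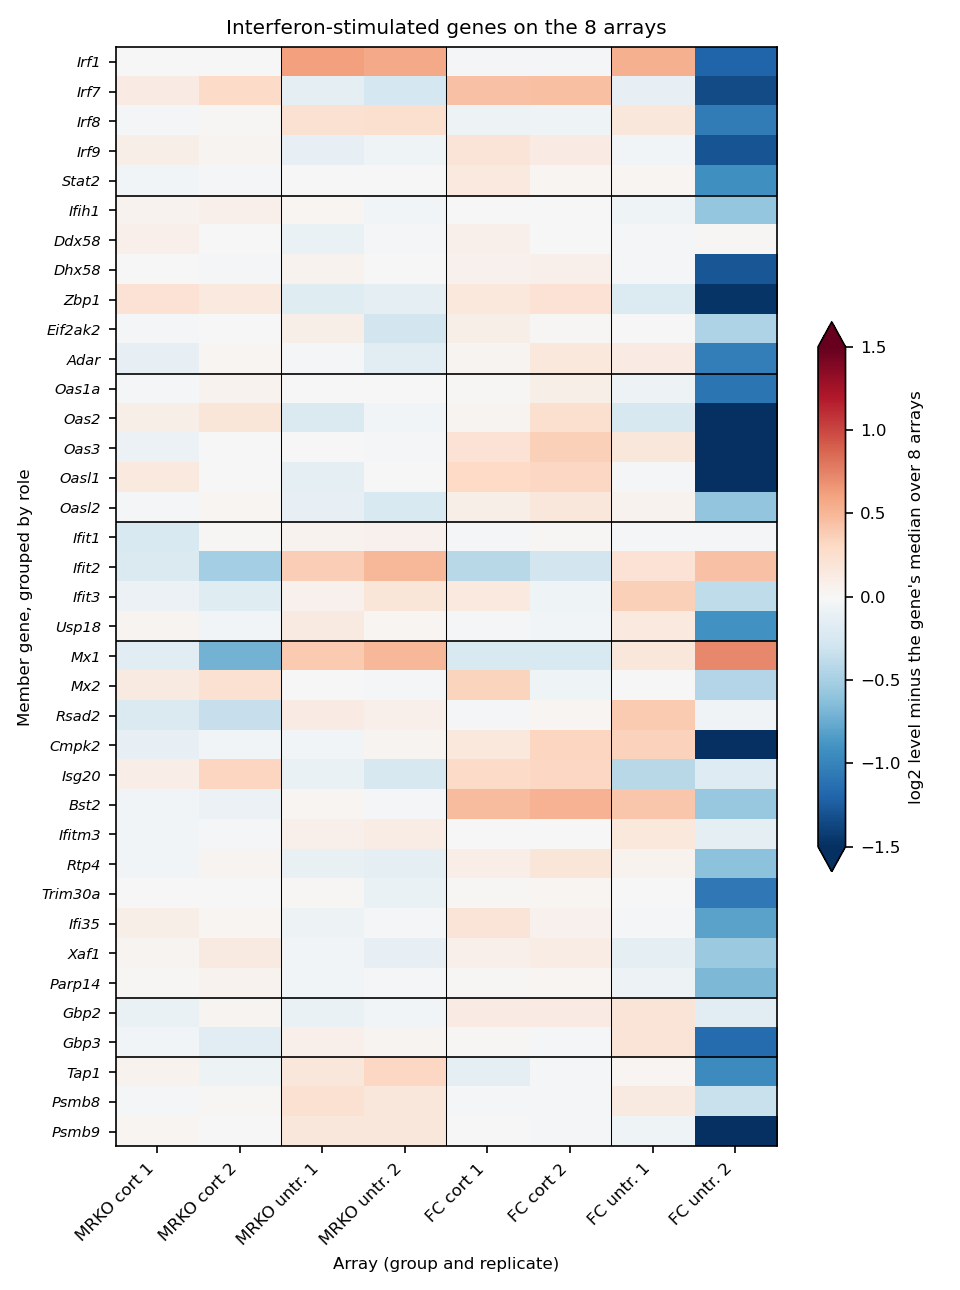
Each row is a member and each column an array, grouped by genotype and treatment; colour gives the log2 level minus that gene's median over the 8 arrays, and black lines separate roles. The column of FC untreated replicate 2 is blue for most members, with Mx1 and Ifit2 among the few that are red there, while the other 7 columns differ little.

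With corticosterone the interferon-stimulated genes moved both ways in MRKO cells: the regulators Irf1 and Irf8 and several effectors fell, while Irf7, Zbp1 and Isg20 rose. Of the 37 members, 3 rose and 9 fell with 7 arrays at a limma adjusted p under 0.05 over all genes, and 25 did not pass. Over all genes tested, 5.75% rose and 7.95% fell. Both treated MRKO arrays lay above both untreated ones for 13 members and below them for 16, where the shares of all genes were 21.8% and 28.8%. The members' median difference was 0.02 log2 units, against -0.02 for all genes. In FC cells 5 rose, 5 fell and 27 did not pass, where 4.85% of all genes rose and 5.95% fell, with a median of 0.06 against -0.0047 for all genes. With each array centred on its median, 5 members were higher and 4 lower in MRKO cells, where 1189 of all 18193 genes rose and 820 fell. Centring moved the median of all genes to 0.04 in MRKO and 0.02 in FC cells. With 8 arrays no member passed in either genotype, where 0.148% of all genes were called in MRKO cells and 0.17% in FC cells; 2 members in MRKO and 5 in FC cells had an unadjusted p under 0.05 by limma.

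Among the transcription factors, Irf1, an early interferon regulatory factor that interferon gamma induces, read 9.33 and 9.32 in MRKO cells with corticosterone, against 9.94 and 9.89 in untreated MRKO cells. In FC cells it read 9.31 and 9.30 with corticosterone, against 9.86 and 8.12 untreated. All 4 treated arrays lay close together, and all untreated arrays except FC untreated replicate 2 lay above them. Irf1 fell by 0.59 (SE 0.049, adjusted p = 4.28e-05, limma, 7 arrays) in MRKO cells and fell by 0.55 (SE 0.060, adjusted p = 0.000342) in FC cells. With 8 arrays the FC difference was 0.32 instead. Irf8, a factor of myeloid and B cell development, read 11.31 and 11.34 in treated MRKO cells against 11.56 and 11.56 in untreated ones, and 11.24 and 11.26 in treated FC cells against 11.49 and 10.27 in untreated ones. It fell by 0.23 (SE 0.031, adjusted p = 0.000814) in MRKO cells and fell by 0.24 (SE 0.038, adjusted p = 0.00321) in FC cells, and its other probe set gave -0.32 and -0.25. With 8 arrays the FC difference was 0.37 and did not pass. With arrays centred on their medians, Irf8 did not pass (adjusted p = 0.0766 in MRKO and 0.0953 in FC cells).

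Irf7, the factor that amplifies interferon alpha production and is itself interferon-induced, moved the other way. It read 8.67 and 8.84 in treated MRKO cells against 8.39 and 8.28 in untreated ones, and 8.99 on both treated FC arrays against 8.42 and 7.21 in untreated FC cells. The treated arrays were the higher ones in both genotypes, without overlap. Irf7 rose by 0.42 (SE 0.078, adjusted p = 0.00617) in MRKO cells, a call lost without MRKO corticosterone replicate 2 (adjusted p = 0.0630), and by 0.57 (SE 0.095, adjusted p = 0.00414) in FC cells. Irf9 and Stat2, partners in the complex that binds the response element, did not pass: Irf9 differed by 0.16 in MRKO and 0.19 in FC cells, and Stat2 by -0.02 and 0.06.

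Of the sensors of foreign nucleic acid only Zbp1 passed among the 6, in each genotype with 7 arrays. Zbp1, which senses Z-form nucleic acid and can start necroptosis, read 8.37 and 8.30 in treated MRKO cells against 7.97 and 8.0 in untreated ones. In FC cells it read 8.30 and 8.36 with the hormone and 7.95 and 6.67 without. It rose by 0.35 (SE 0.075, adjusted p = 0.0128, limma) in MRKO cells and by 0.39 in FC cells, and its other probe set gave 0.16 and 0.30. The FC call did not hold with the replicate block. The calls were lost without either treated array of the genotype concerned, at adjusted p = 0.0956 and 0.0519 without MRKO corticosterone replicates 1 and 2, and 0.0986 and 0.158 without FC corticosterone replicates 1 and 2. The other 5 are the RNA helicases Ifih1, Ddx58 and Dhx58, the kinase Eif2ak2 and the RNA editing enzyme Adar. On the probe sets used they lay between -0.05 and 0.10 in both genotypes and did not pass. Other probe sets of Ddx58, Dhx58, Eif2ak2 and Adar gave between -0.07 and 0.34, the highest for Adar in MRKO cells.

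The oligoadenylate synthetases make the second messenger that activates RNase L. Of the 5 genes of this family, 1 rose in FC cells and none passed in MRKO cells. Oasl1, a family member without synthetase activity that restrains Irf7 translation in mice, read 9.27 and 9.28 in treated FC cells against 8.94 and 7.47 in untreated FC cells, and 9.11 and 8.97 in treated MRKO cells against 8.84 and 8.97 in untreated ones. The treated FC arrays were the highest of the 8. Oasl1 rose by 0.33 (SE 0.088, adjusted p = 0.0457) in FC cells, a call lost without FC corticosterone replicate 1 (adjusted p = 0.182) or 2 (adjusted p = 0.199), and differed by 0.14 in MRKO cells. Oas2 differed by 0.26 and 0.38 in MRKO and FC cells and did not pass.

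Ifit2 and Mx1 had the largest differences among the members in MRKO cells. Ifit2, which binds foreign RNA and restrains its translation, read 6.12 and 5.84 in treated MRKO cells against 6.71 and 6.85 in untreated ones, and 5.92 and 6.07 in treated FC cells against 6.56 and 6.78 in untreated ones. All 4 treated arrays lay below all 4 untreated arrays, FC untreated replicate 2 included. Ifit2 fell by 0.80 (SE 0.14, adjusted p = 0.00470) in MRKO cells, while the FC difference of -0.57 did not pass with 7 arrays, nor did that of -0.68 with 8 (adjusted p = 0.430). Mx1 encodes a dynamin-like antiviral GTPase whose gene is defective in C57BL/6 mice. It read 6.74 and 6.20 in treated MRKO cells against 7.30 and 7.40 in untreated ones, and 6.69 and 6.68 in treated FC cells against 7.07 and 7.64 in untreated ones. Here too all treated arrays lay below all untreated ones. Mx1 fell by 0.88 (SE 0.17, adjusted p = 0.00643) in MRKO cells, a call lost without the variance trend (adjusted p = 0.0617), and the FC difference of -0.39 did not pass. Ifit1, Ifit3 and Usp18, the protease that removes the ISG15 protein from its targets, lay between -0.32 and 0.01 in both genotypes, with none passing.

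Rsad2 encodes viperin, an enzyme that makes a chain-terminating nucleotide against viruses. It read 9.95 and 9.83 in treated MRKO cells against 10.29 and 10.25 in untreated ones, and 10.14 and 10.20 in treated FC cells against 10.56 and 10.12 in untreated ones. The treated arrays were lower, apart from the FC untreated replicate 2 value. Rsad2 fell by 0.38 (SE 0.052, adjusted p = 0.00105, limma) in MRKO cells and by 0.39 in FC cells with 7 arrays. The MRKO call held without each array in turn. The FC call held without each array that could be left out, but was lost without the variance trend. With both untreated FC arrays the FC means were 10.17 treated and 10.34 untreated. Its other 2 probe sets gave -0.43 and -0.33 in MRKO and -0.40 and -0.59 in FC cells with 7 arrays. Cmpk2, its neighbour on chromosome 12, differed by -0.08 and -0.11 and did not pass. Isg20, a 3′ to 5′ exonuclease of RNA, read 7.63 and 7.86 in treated MRKO cells against 7.43 and 7.28 in untreated ones, and 7.81 and 7.84 in treated FC cells against 7.11 and 7.33 in untreated ones. All treated arrays lay above all untreated ones. It rose by 0.39 (SE 0.11, adjusted p = 0.0422) in MRKO cells and by 0.71 (SE 0.13, adjusted p = 0.00712) in FC cells. The MRKO call for Isg20 was lost without MRKO untreated replicate 2 (adjusted p = 0.143), MRKO corticosterone replicate 2 (0.287) or FC corticosterone replicate 1 or 2 (0.0974 and 0.0975), and the FC call without FC corticosterone replicate 1 or 2 (0.0542 and 0.0647).

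Smaller changes passed for genes read high on the scale. Ifitm3, which blocks virus entry at endosomes, lay between 13.24 and 13.29 on treated and between 13.36 and 13.44 on untreated arrays other than FC untreated replicate 2. It fell by 0.12 (SE 0.022, adjusted p = 0.00419) in MRKO cells and fell by 0.16 (SE 0.027, adjusted p = 0.00440) in FC cells, but passed in neither with arrays centred on their medians (adjusted p = 0.593 and 0.354), and in MRKO cells not without MRKO corticosterone replicate 1 (0.0579). Xaf1, a pro-apoptotic gene, read 10.03 and 10.07 in treated against 9.81 and 9.40 in untreated FC cells, and 9.99 and 10.09 in treated against 9.92 and 9.84 in untreated MRKO cells. It rose by 0.24 (SE 0.065, adjusted p = 0.0451) in FC cells. This call was lost without MRKO corticosterone replicate 1 or 2 and without FC corticosterone replicate 1 or 2. The other probe set of Xaf1 gave 0.07 but averaged only 3.87, below the median of every array.

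The antigen processing genes fell in MRKO cells by small amounts, and none of the 3 falls passed with arrays centred on their medians (adjusted p = 0.111 for Tap1, 0.210 for Psmb8 and 0.448 for Psmb9). Tap1 carries peptides into the endoplasmic reticulum, and Psmb8 and Psmb9 are subunits of the immunoproteasome; the 3 lie side by side on chromosome 17. Psmb8 read 11.47 and 11.50 in treated against 11.71 and 11.66 in untreated MRKO cells, and fell by 0.20 (SE 0.032, adjusted p = 0.00284). Psmb9 read 10.31 and 10.30 against 10.46 and 10.45, and fell by 0.15 (SE 0.039, adjusted p = 0.0328). Tap1 read 9.44 and 9.31 against 9.56 and 9.70, and fell by 0.25 (SE 0.072, adjusted p = 0.0468, limma). Its other 3 probe sets differed by -0.03 to 0.06 but averaged only 2.40 to 5.52, below the median of every array. In FC cells Psmb8 fell by 0.16 (SE 0.040, adjusted p = 0.0350), and Tap1 and Psmb9 differed by -0.12 and 0.05 and did not pass.

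Those small differences were fragile. In MRKO cells the call for Tap1 was lost without MRKO untreated replicate 2 (adjusted p = 0.176), MRKO corticosterone replicate 1 or 2 (0.0558 and 0.287) or FC corticosterone replicate 1 or 2 (0.0869 and 0.0875). That for Psmb9 was lost without any single MRKO array (0.0600 and 0.0637 without untreated replicates 1 and 2, 0.133 and 0.184 without corticosterone replicates 1 and 2) or FC corticosterone replicate 1 or 2 (0.0743 and 0.0741). The FC call for Psmb8 was lost without MRKO corticosterone replicate 1 or 2 (0.0696 and 0.0701) and FC corticosterone replicate 1 or 2 (0.126 and 0.157), and with arrays centred on their medians (0.431); with 8 arrays its FC difference was 0.08. Fewer members were called in MRKO cells without MRKO corticosterone replicate 2, and in FC cells without FC corticosterone replicate 1 or 2. Across both hormone comparisons 8 members were called in the same direction, 3 higher (Irf7, Zbp1 and Isg20) and 5 lower (Irf1, Irf8, Rsad2, Ifitm3 and Psmb8), and none in opposite directions; 23 were called in neither. Of all genes tested, 3.7% were higher and 4.71% lower in both.

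Markers of lymphocytes and of the cell cycle were lower in the treated cultures too. Of 13 cell cycle genes 10 fell in MRKO cells (median -0.65) and 9 in FC cells (median -0.61), and the list averaged 8.02 and 7.85 in treated against 8.52 and 8.61 in untreated MRKO cells, and 7.36 and 7.31 in treated against 8.04 and 9.37 in untreated FC cells. Of 9 macrophage markers 5 rose and 1 fell in each genotype. The B cell list averaged 6.71 and 6.80 in treated against 7.92 and 7.79 in untreated MRKO cells, and 6.69 and 6.80 in treated against 7.62 and 6.76 in untreated FC cells; with 7 arrays 6 of its 8 measured genes fell in each genotype. Of 10 T and NK cell markers 6 fell in MRKO and 5 in FC cells, and of 8 plasmacytoid dendritic cell markers 3 fell in each. The T and NK list averaged 4.57 and 4.56 in treated against 5.64 and 5.64 in untreated MRKO cells, and 4.67 and 4.74 in treated against 5.47 and 5.22 in untreated FC cells. The plasmacytoid dendritic cell list averaged 6.97 and 7.01 against 7.65 and 7.59, and 6.90 and 6.93 against 7.37 and 7.0, in the same order. B cells also express Irf8, Tap1, Psmb8 and Psmb9, and in such bulk samples fewer cells of a type and less RNA per cell cannot be told apart. The part of these cells, and of cell division, in the changes above was not tested.

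**Figure D2:**
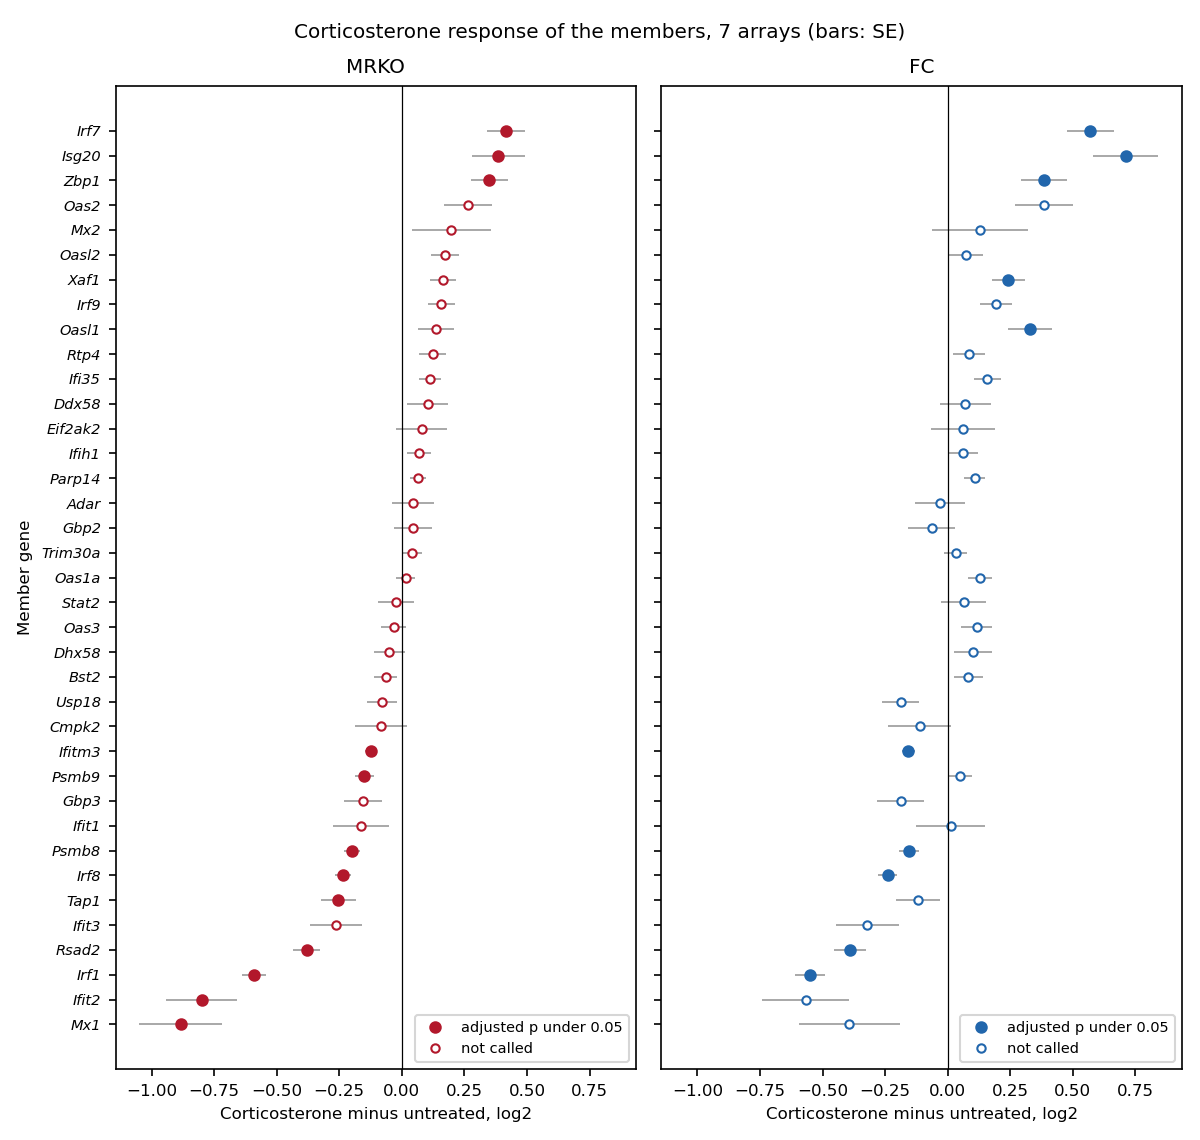
Corticosterone minus untreated, in log2 units with SE bars, for each member in MRKO (left) and FC (right) cells with 7 arrays; filled points have an adjusted p under 0.05. In MRKO cells 3 filled points lie to the right of 0 and 9 to the left, and in FC cells 5 lie on each side.

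The genotype comparison asks which of these genes differ when the receptor is deleted. Without hormone its answer turned with 1 array. With 8 arrays 34 of the 37 members were positive (MRKO minus FC), with a median of 0.36 against 0.03 for all genes, and none passed, where 0% of all genes were called and no member had an unadjusted p under 0.05 by limma. With 7 arrays 16 were positive and 21 negative, with a median of -0.03 against 0.01 for all genes, and 18 members had changed sign from positive to negative, none the other way. Among the members with the smallest p on 8 arrays, Psmb9 differed by 0.99 (SE 0.46), Tap1 by 0.71 (SE 0.32), Irf8 by 0.68 (SE 0.37), Oas1a by 0.58 (SE 0.31) and Psmb8 by 0.30 (SE 0.16), each with a limma adjusted p = 0.486. With 7 arrays the same differences were 0.23, 0.21, 0.07, 0.07 and 0.06 in that order. Cmpk2 turned the most, from 0.90 with 8 arrays to -0.35 with 7, and passed with neither (chosen after its values were seen). The other probe set of Cmpk2 gave -0.03 with 7 arrays. That probe set read 6.45 and 6.55 in untreated MRKO cells against 6.53 and 6.28 in untreated FC cells. Centring each array on its median shifted the median of all genes with 7 arrays to -0.11 without hormone and -0.08 with it.

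**Figure D3:**
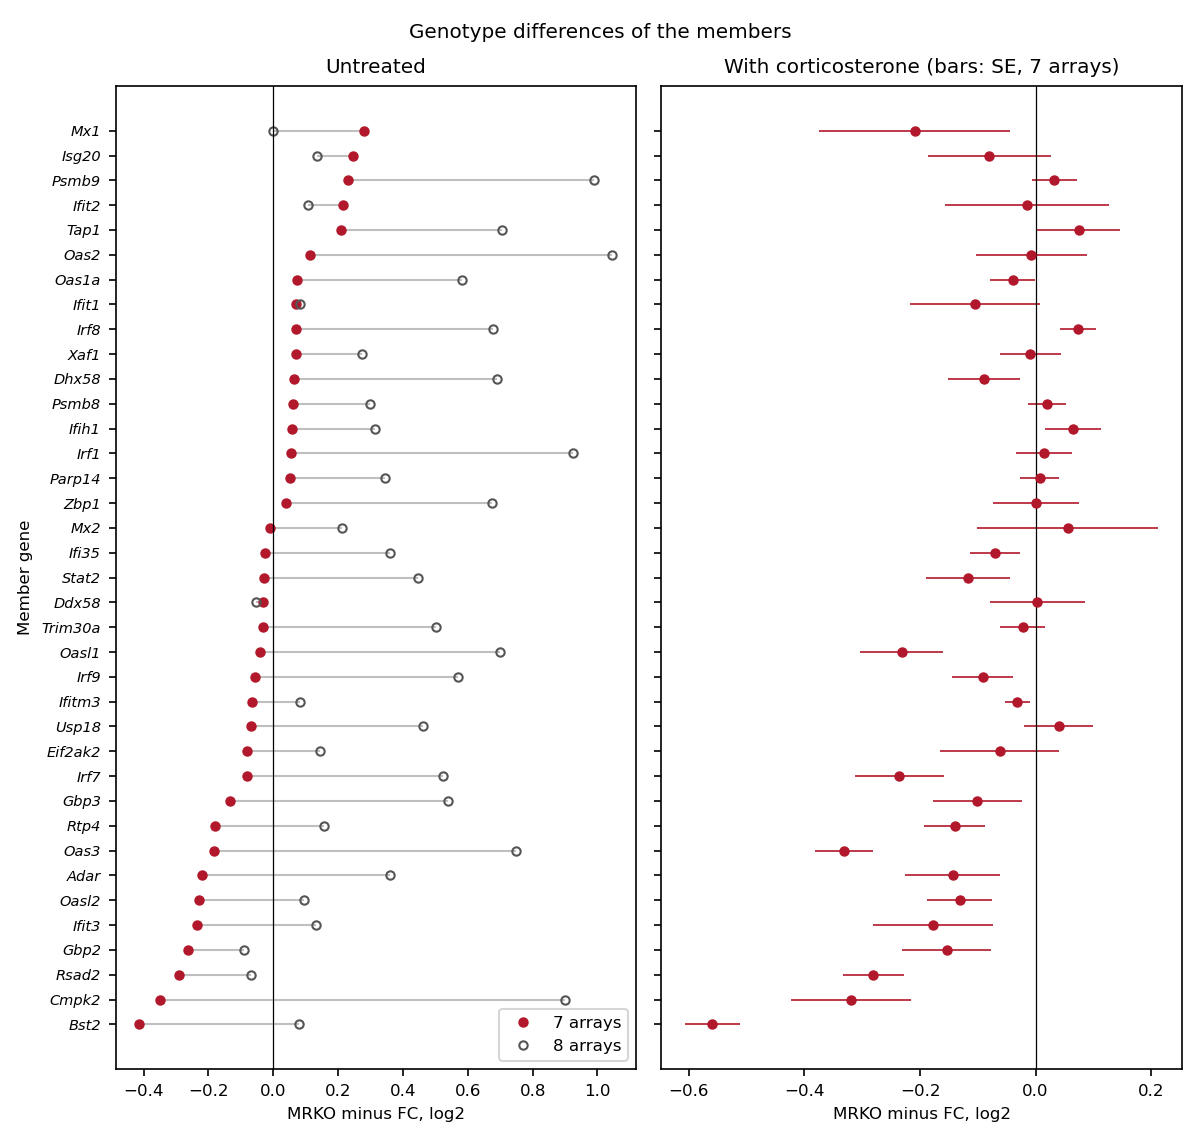
MRKO minus FC in log2 units for each member, without hormone (left; filled points 7 arrays, open points 8 arrays, grey lines joining them) and with corticosterone (right; SE bars, 7 arrays). On the left most open points lie far to the right of the filled ones; on the right Bst2, Oas3 and Rsad2 are the called members and lie to the left of 0.

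Bst2 was lower in MRKO cells with the hormone, and also without it when FC untreated replicate 2 was left out. It encodes tetherin, which holds budding viruses at the cell surface. Bst2 read 9.79 and 9.74 in MRKO cells with corticosterone against 10.30 and 10.35 in FC cells with corticosterone. Untreated, it read 9.86 and 9.81 in MRKO cells against 10.25 and 9.26 in FC cells. All 4 MRKO arrays lay below the 3 FC arrays other than FC untreated replicate 2, which was the lowest of all 8. With corticosterone Bst2 fell by 0.56 in MRKO relative to FC cells (SE 0.047, adjusted p = 0.000273, limma, 7 arrays), a fold of 0.679. This call held without each of the 7 arrays in turn and under the other alternatives run with 7 arrays. Without hormone Bst2 fell by 0.41 with 7 arrays, where the untreated FC group was 1 array, and the difference was 0.08 with 8. The untreated call was lost without the variance trend and when only the arrays compared were fitted. Bst2 was read by 1 probe set.

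With corticosterone 3 members were lower in MRKO cells and none higher with 7 arrays, where 0.335% of all genes were lower and 1.29% higher. With 8 arrays the differences are the same, no member passed, 0% of all genes were called, and no member had an unadjusted p under 0.05; Bst2 then had SE 0.31 (adjusted p = 1). Oas3, the synthetase most sensitive to long foreign RNA, read 10.74 and 10.82 in MRKO cells against 11.05 and 11.18 in FC cells, all with corticosterone. Its groups did not overlap. Oas3 fell by 0.33 (SE 0.050, adjusted p = 0.0105), a call lost without MRKO corticosterone replicate 1 (adjusted p = 0.118) or FC corticosterone replicate 2 (0.146). The Oas3 call was also lost without the variance trend (limma adjusted p = 0.217). Rsad2, with the levels given above, fell by 0.28 (SE 0.052, adjusted p = 0.0334, limma), and its other 2 probe sets both gave -0.27. The call was lost without MRKO corticosterone replicate 2 or FC corticosterone replicate 1 or 2. It was also lost with the mean of all probe sets (limma adjusted p = 0.160), without the variance trend (0.264) and with the replicate block (0.0756). The count of 3 was 1 without FC corticosterone replicate 2.

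Most other members lay slightly below 0 in the same comparison. Of the 37, 26 were negative and 11 positive, with a median of -0.07 against 0.0001 for all genes. For 18 members both MRKO arrays lay below both FC arrays, and for 5 both lay above, where 20.3% of all genes were below and 21.6% above. The oligoadenylate synthetase genes were all negative, between -0.33 and -0.0074. Irf7 differed by -0.24, Oasl1 by -0.23 and Cmpk2 by -0.32, and none of these passed. The other probe set of Cmpk2 gave 0.02. The antigen processing genes lay between 0.02 and 0.07. Marker lists of other kinds differed between the same arrays. Of 13 cell cycle genes 9 were higher in MRKO cells (median difference 0.61), and the list averaged 8.02 and 7.85 in MRKO against 7.36 and 7.31 in FC cells. All 12 fibroblast and mesothelial markers were positive (median 0.24) with none passing, 1 of 9 macrophage markers was higher, and no B cell, T and NK cell, plasmacytoid dendritic cell or neutrophil marker passed. The part of these differences in the members' values was not tested.

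Other members that were among the smallest p of a comparison without passing showed the same dip on FC untreated replicate 2. Oas1a, a synthetase, read 11.21 and 11.27 in treated and 11.23 and 11.22 in untreated MRKO cells, and 11.24 and 11.32 in treated and 11.15 and 10.13 in untreated FC cells. Dhx58, a helicase that tunes RNA sensing, read 8.66 and 8.65 in treated and 8.73 and 8.68 in untreated MRKO cells, and 8.74 and 8.75 in treated and 8.64 and 7.39 in untreated FC cells. Oasl2, a ubiquitin-like relative of the synthetases, read 9.74 and 9.80 in treated and 9.65 and 9.54 in untreated MRKO cells, and 9.86 and 9.94 in treated and 9.82 and 9.17 in untreated FC cells. In these 3 genes FC untreated replicate 2 was the lowest of the 8 arrays. Ifit3, a partner of Ifit1 in RNA binding, read 7.45 and 7.36 in treated and 7.61 and 7.73 in untreated MRKO cells, and 7.69 and 7.48 in treated and 7.90 and 7.17 in untreated FC cells. Gbp2, a GTPase that acts on pathogen vacuoles, read 8.28 and 8.43 in treated and 8.28 and 8.34 in untreated MRKO cells, and 8.50 and 8.51 in treated and 8.57 and 8.23 in untreated FC cells. Both were lower in treated MRKO than in treated FC cells on every array.

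Without hormone and with 7 arrays, 1 member was higher and 1 lower in MRKO cells, where 1.43% of all genes were higher and 0.555% lower. The lower one was Bst2. The higher one, Psmb9, read 10.46 and 10.45 in MRKO cells against 10.23 and 8.71 in FC cells, and rose by 0.23 (SE 0.048, adjusted p = 0.0481). The Psmb9 call was lost without MRKO untreated replicate 2 (adjusted p = 0.0638), MRKO corticosterone replicate 1 or 2 (0.100 and 0.101) or FC corticosterone replicate 1 or 2 (both 0.131), and with arrays centred on their medians (0.409), when 0 members were higher and 2 lower. Without MRKO untreated replicate 1 the count was 4. The next members by p were Rsad2 at -0.29 (adjusted p = 0.0610), Oasl2 at -0.23 (0.157) and Oas3 at -0.18 (0.210). B cell markers were also higher without hormone, averaging 7.92 and 7.79 in MRKO cells against 7.62 on FC untreated replicate 1, with 1 of 8 called. All 13 cell cycle genes were positive in MRKO cells (median 0.67, 3 called), and the list averaged 8.52 and 8.61 in MRKO cells against 8.04 on FC untreated replicate 1. In addition 2 of 9 macrophage, 1 of 8 plasmacytoid dendritic cell and 1 of 8 neutrophil markers were higher. The part of these lists in the Psmb9 and Bst2 differences was not tested.

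**Figure D4:**
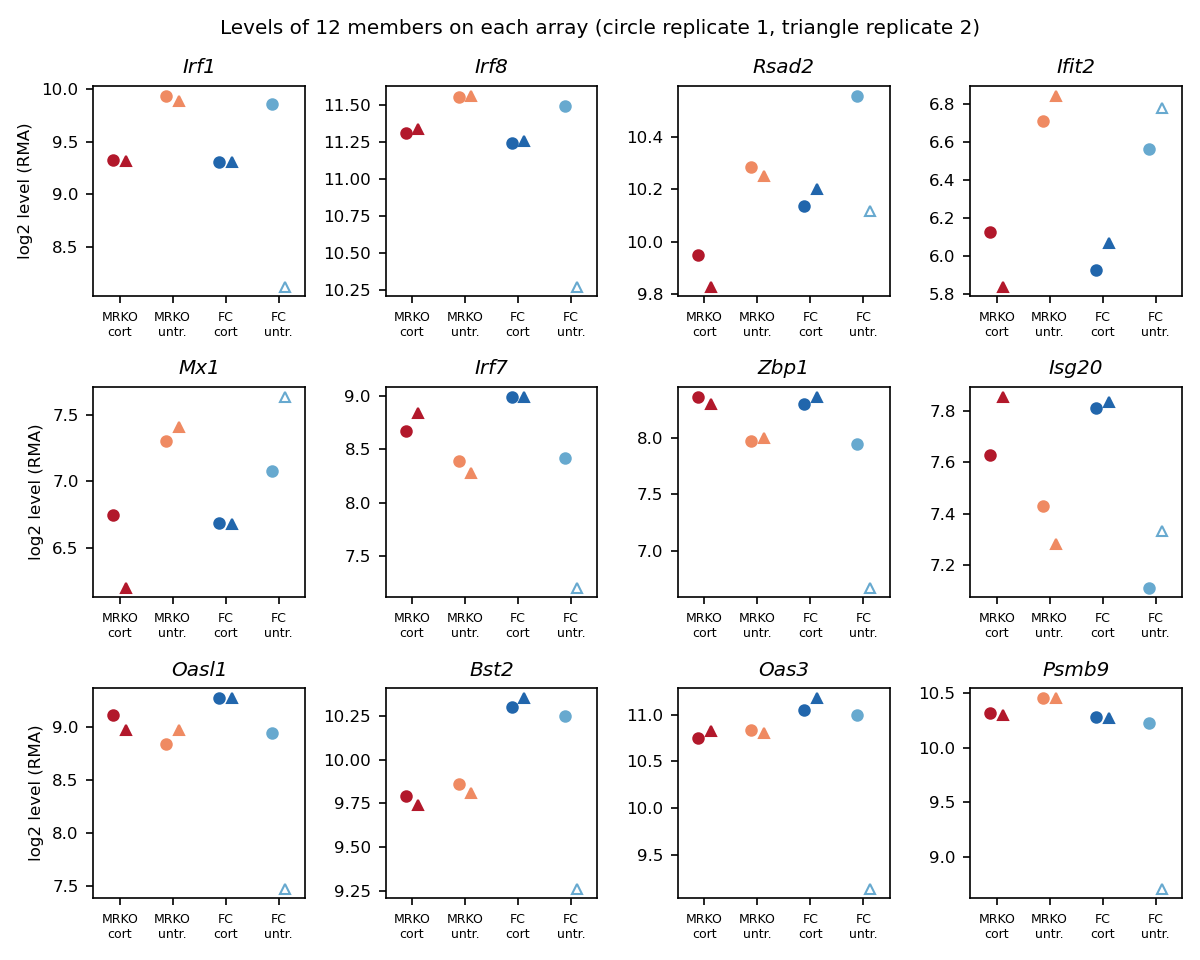
Log2 levels of 12 members on every array, in the groups MRKO with corticosterone, MRKO untreated, FC with corticosterone and FC untreated; circles are replicate 1, triangles replicate 2, and the open triangle is FC untreated replicate 2. Ifit2 and Mx1 are lower and Isg20 is higher on all treated arrays than on all untreated ones. Irf1 is lower on treated arrays than on the untreated ones other than the open triangle, which is the lowest. Bst2 is lower on the MRKO arrays than on the filled FC points.

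The sequences upstream of the 3 members that were lower in MRKO cells with corticosterone are shown because each holds the letters of the interferon-stimulated response element. The motif searched was GAAA, any 2 bases and GAAA again, on either strand, in windows from 250 bases before to 50 after the start site (RefSeq, GRCm38.p6). Below are the 250 bases upstream of the start of Bst2 (chr8:71537473-71537722, minus strand), Oas3 (chr5:120777660-120777909, minus strand) and Rsad2 (chr12:26456453-26456702, minus strand), written along the gene, with matches in capitals.
Bst2: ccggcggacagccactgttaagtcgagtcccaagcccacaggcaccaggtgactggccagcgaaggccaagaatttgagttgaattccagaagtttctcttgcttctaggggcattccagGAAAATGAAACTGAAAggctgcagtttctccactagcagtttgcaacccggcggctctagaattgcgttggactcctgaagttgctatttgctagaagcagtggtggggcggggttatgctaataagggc
Oas3: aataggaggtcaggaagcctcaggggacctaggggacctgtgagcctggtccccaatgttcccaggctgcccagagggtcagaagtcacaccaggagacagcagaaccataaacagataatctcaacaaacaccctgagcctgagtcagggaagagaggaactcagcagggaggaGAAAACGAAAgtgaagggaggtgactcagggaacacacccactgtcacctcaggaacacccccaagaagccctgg
Rsad2: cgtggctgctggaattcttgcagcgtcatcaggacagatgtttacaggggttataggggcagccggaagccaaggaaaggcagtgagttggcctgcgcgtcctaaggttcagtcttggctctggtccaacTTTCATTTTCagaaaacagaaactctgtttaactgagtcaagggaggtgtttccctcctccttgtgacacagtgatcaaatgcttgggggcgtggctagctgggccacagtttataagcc

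In Bst2 2 overlapping matches span positions -130 to -115, in Oas3 1 match spans -75 to -66, and in Rsad2 1 match, on the opposite strand, spans -120 to -111. Windows were matched for 29 of the 37 members. The motif was in a window of 14 of them (48.3%), against 3.99% of all 27025 genes with a window. The 14 also include Ifit1, Ifit3, Ifitm3, Oas1a, Stat2, Ifih1, Ddx58, Eif2ak2, Trim30a, Gbp2 and Gbp3, and of these only Ifitm3 was called in a comparison with 7 arrays. A shorter motif, TTCNNNGAA, the letters of the gamma-activated site, was in windows of 11 members (37.9%), among them Irf1, Irf8, Psmb8 and Bst2, against 9.55% of all genes; in Bst2 it overlaps the start of the matches shown. The letters of the glucocorticoid response element (GNACA, any 3 bases, TGTNC) were in none of the 29, against 0.537% of all genes. At so low a share no match would be likely in any 29 genes, so nothing is concluded from it. Of the 3 members that rose with corticosterone in both genotypes, Irf7 and Isg20 had a window and neither held the first motif.

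The response to corticosterone was not shown to differ between genotypes for any member. No interaction passed with 7 arrays, where 0.0165% of all genes were called, or with 8 arrays, where 0% were, and 1 member with 7 arrays and none with 8 had an unadjusted p under 0.05 by limma. That member was Psmb9, which changed by -0.15 in MRKO and 0.05 in FC cells (interaction -0.20, SE 0.062, adjusted p = 0.813). Mx1 had an interaction of -0.49 (SE 0.26, adjusted p = 0.888), Isg20 of -0.32 (SE 0.17, adjusted p = 0.885), and Bst2 and Oas3 both of -0.15 (adjusted p = 0.885 and 0.887). With 8 arrays 36 of 37 interactions were negative, with a median of -0.43, and with 7 arrays 21 were, with a median of -0.04.

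Genes elsewhere in the interferon pathway also changed with corticosterone with 7 arrays, and none passed with 8. How these calls fared under the other alternatives was examined for members only, not for these genes. The interferon genes Ifnb1, Ifna2, Ifna4 and Ifng read between 2.19 and 3.35 on all 8 arrays, whose medians over all probe sets were 5.55 to 5.58. Of 10 measured interferon and receptor genes, 2 fell with corticosterone in MRKO cells and none passed in FC cells. Ifnar1, a chain of the type I interferon receptor, read 10.67 and 10.77 in treated against 11.02 and 11.00 in untreated MRKO cells and fell by 0.29 (SE 0.042, adjusted p = 0.00125). Ifngr2, a chain of the interferon gamma receptor, fell by 0.27 (adjusted p = 0.0301). Of 9 signalling genes 1 rose in each genotype, Socs3, which restrains JAK kinases. It rose by 0.84 (SE 0.15, adjusted p = 0.00574) in MRKO and by 0.78 (SE 0.19, adjusted p = 0.0292) in FC cells, and read 9.32 on FC untreated replicate 2 against 5.83 on replicate 1. With 8 arrays its FC difference was -0.97 and did not pass.

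Among 14 genes that sense infection upstream of interferon, 3 rose and 3 fell with corticosterone in MRKO cells, and 4 rose and 2 fell in FC cells. Tlr7, the endosomal receptor for foreign RNA, read 12.01 and 12.05 in treated against 11.13 and 11.11 in untreated MRKO cells, and 11.98 and 11.99 in treated against 11.02 and 10.30 in untreated FC cells. It rose by 0.91 (SE 0.030, adjusted p = 1.18e-07) in MRKO and by 0.97 (SE 0.037, adjusted p = 4.64e-07) in FC cells. Irf5, a factor downstream of such receptors, fell by 0.25 (adjusted p = 0.00439) and fell by 0.21 (adjusted p = 0.0410), and Sting1, the adaptor of DNA sensing, fell by 0.24 (adjusted p = 0.0110) and fell by 0.26 (adjusted p = 0.0263), in MRKO and FC cells in that order. With 8 arrays the FC differences were 0.32 for Irf5 and 0.05 for Sting1, and neither passed. Of 17 interferon gamma targets outside the list, 2 rose and 2 fell in MRKO cells and 1 rose and 2 fell in FC cells. Cd274, which encodes the checkpoint ligand PD-L1, fell by 0.41 (adjusted p = 6.86e-05) in MRKO and fell by 0.39 (adjusted p = 0.000507) in FC cells, where the difference was 0.54 with 8 arrays and did not pass. Gbp7 rose by 0.65 (adjusted p = 5.61e-05) and by 0.43 (adjusted p = 0.00342), and was the only pathway gene called between genotypes, lower in untreated MRKO cells by a log2 difference of -0.41 (adjusted p = 0.0183) with 7 arrays, against 0.35 with 8, which did not pass. For comparison, 9 of the 10 listed glucocorticoid-induced genes rose in each genotype.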

How the data were processed

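The authors' deposited values are log2 levels per probe set and array, made with RMA in R 2.7 per the submitters' processing notes. RMA makes arrays alike, so values are relative within an array. Of 45101 probe sets, 34945 were annotated to 1 gene, and symbols were updated through gene identifiers to GRCm38.p6 for 34741. The probe set with the highest mean stood for each of 18193 genes. limma 3.58.1 (run under R 4.3.3) fitted a mean for each group with a variance trend, and p-values adjusted over all genes by the method of Benjamini and Hochberg (called under 0.05, no minimum fold). SE values come from this fit. The 8-array fit left 4 residual degrees of freedom and the 7-array fit 3.

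The members, the lists and the tests were chosen with earlier results of these data known. Members described array by array are the up to 8 called with the largest difference and groups that do not overlap, or the 5 with the smallest p where fewer than 3 were called; Nr3c2 and Fkbp5 serve as checks, other members are given by value or range, and each pathway list is represented by called genes with the smallest p. Alternatives changed the variance trend, the probe sets, a filter on low values, the scaling, the weights, the replicate block and the arrays used. The replicate numbers were not taken to pair arrays, since replicate 2 minus replicate 1 correlated between -0.29 and 0.40 across groups.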

Additional observations from a re-analysis of the deposited data

How the results depend on the processing

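With 8 arrays no member was called in any comparison under 7 of the 9 alternatives that keep all arrays. The exceptions concern the comparisons that do not use untreated FC cells: array weights and fitting only the arrays compared called 2 and 3 members between genotypes with corticosterone, and 9 each for the hormone in MRKO cells. Of all 18193 genes, array weights called 206 higher and 58 lower between genotypes, and 804 higher and 1152 lower for the hormone. Fitting only the arrays compared called 372 and 118, and 815 and 1105, in the same order. Leaving out 1 array gave 0 to 29 calls between genotypes without hormone, 0 to 3 with it, 0 to 12 for the hormone in MRKO cells, 0 to 34 in FC cells and 0 to 29 for the interaction. The highest counts between untreated genotypes, in FC cells and for the interaction came without FC untreated replicate 1. That leaves the outlying array as its whole group, and most of all genes tested were called there too.

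With 7 arrays the 2 calls between untreated genotypes were 0 without the variance trend or with only the arrays compared, and 1 with every probe set as its own row, array weights or the replicate block; leaving out 1 array gave 1 to 4. The 3 calls with corticosterone were 1 without the variance trend and 1 to 3 leaving out 1 array. The 12 calls for the hormone in MRKO cells were 6 without the trend and 7 to 14 leaving out 1 array; a crossed pairing, added after seeing the data, gave 17 from the 4 arrays compared. The 10 calls in FC cells were 4 without the trend, 6 with arrays centred on their medians, 6 with the replicate block and 5 to 11 leaving out 1 array. No member was called for the interaction with 7 arrays under any alternative run. The crossed pairing in MRKO cells called 1607 higher and 2198 lower of all 18193 genes. Over all genes the hormone calls in MRKO cells went from 1046 higher and 1447 lower to 539 and 750 without the trend. Fewer of all genes were also called without the trend in FC cells and in both genotype comparisons. The cause of these changes in the counts was not tested. Without FC untreated replicate 1 the 7-array fit has no untreated FC cells, so its comparisons with that group could not be fitted, and fitting only the arrays compared gives no interaction.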
